A study of Mus musculus with 6 samples.

Results

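The PI3K, AKT and mTOR pathway carries signals from growth factor receptors to protein synthesis, metabolism and survival. The 38 pathway genes described here were taken by their gene symbols from the deposited count table, which lists 58735 genes, and all 38 symbols were found. The rule used names and no measured value. RNA-Seq compared 22Rv1, a human prostate cancer cell line, grown with vehicle (parental) with the subline 22Rv1 BL-B01D1_R, which was obtained by growing the same line in rising concentrations of BL-B01D1. There were 3 libraries in each group. BL-B01D1 is an antibody-drug conjugate that binds EGFR and HER3 and carries a camptothecin-type inhibitor of topoisomerase I. The resistant line came from 1 selection, so the libraries of a group are samples of 1 line, and the p-values measure only the spread between these samples. The labels do not say whether they came from separate cultures.

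In the pathway, ligand-bound receptors such as the IGF-1 receptor and the insulin receptor recruit insulin receptor substrate (IRS) adaptors, which bind PI3K through its regulatory subunits. The catalytic subunits of PI3K then make the membrane lipid PIP3, and PIP3 brings AKT to the membrane, where PDK1 and mTOR complex 2 phosphorylate it. AKT inhibits the TSC complex, GSK3 and the FOXO transcription factors, and mTOR complex 1, switched on at the lysosome by RHEB and the Rag GTPases, phosphorylates S6 kinases and 4E-BP1. In prostate cancer the pathway is often active. The design asks how the mRNA of these genes differs between the resistant and the parental cells.

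Libraries held between 13821639 and 17251491 counts, so that 3 counts correspond to 0.174 to 0.216 CPM (counts in each 1e+06 of the library size after TMM scaling). Pairs of libraries differed by more than sampling noise within groups as well, where a chi-square statistic came to 1.77 to 2.47 for each degree of freedom, and all 6 were counted as separate samples. Luminal prostate markers were expressed in every library, with a summed level of 3890 to 4010 CPM over 11 genes in parental cells and 4050 to 4120 CPM in resistant cells. Of these 11 genes 6 were higher and 4 lower, among them KLK3 with a log2 fold change of 0.91, TMPRSS2 with 0.79 and HOXB13 with −0.48. The 6 neuroendocrine markers summed to 316 to 323 CPM in parental and 307 to 319 CPM in resistant cells, with CHGA lower (−2.27) and CHGB higher (0.65). The 3 basal epithelial markers summed to at most 0.298 CPM. Of 4 endothelial markers none had more than 3 counts in any library, and the 6 leukocyte markers summed to at most 2.5 CPM. The 6 fibroblast markers summed to 112 to 115 CPM in parental cells and 39.6 to 44.7 CPM in resistant cells, with 2 of the 6 lower, mostly through LUM, which was 96.03 CPM in parental and 28.77 CPM in resistant cells. The part of these markers in the results below was not tested. In RNA from a whole culture, fewer cells that express a gene and less RNA per cell cannot be told apart.

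Of the 38 genes, 36 had enough counts for the test, 21 of these had no call, and the changes that passed the test went both ways. In the resistant subline 10 were higher (27.8% of those tested) and 5 lower (13.9%) at an FDR of less than 0.05 in edgeR's quasi-likelihood test, whereas 17.1% of all 17142 genes tested were higher and 18.4% lower. The split of calls shifted with the scaling of libraries. With library size alone, 9 pathway genes were higher and 7 lower, so the higher genes made up 56.2% of calls against 66.7% with TMM. The median log2 fold change was 0.0029 over the 36 genes and 0.0038 over all genes tested. The median size of a change, regardless of sign, was 0.116 on the log2 scale for the pathway genes and 0.172 for all genes. These sizes were not compared at matched expression, and the median level of the 38 genes was 60.9 CPM.

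The study's methods set a second threshold, a log2 fold change above 1 in size, and no pathway gene passed it together with the FDR in edgeR, DESeq2 or limma. Among all genes, 2.53% passed them as higher and 2.84% as lower. At an unadjusted p under 0.05 the count past the fold threshold was also 0, and 17 pathway genes had such a p at any fold change. For 12 pathway genes the lowest resistant library exceeded the highest parental one, and for 8 the reverse held, or 33.3% and 22.2%, compared with 22.1% and 22.8% of all genes tested.

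**Figure D1:**
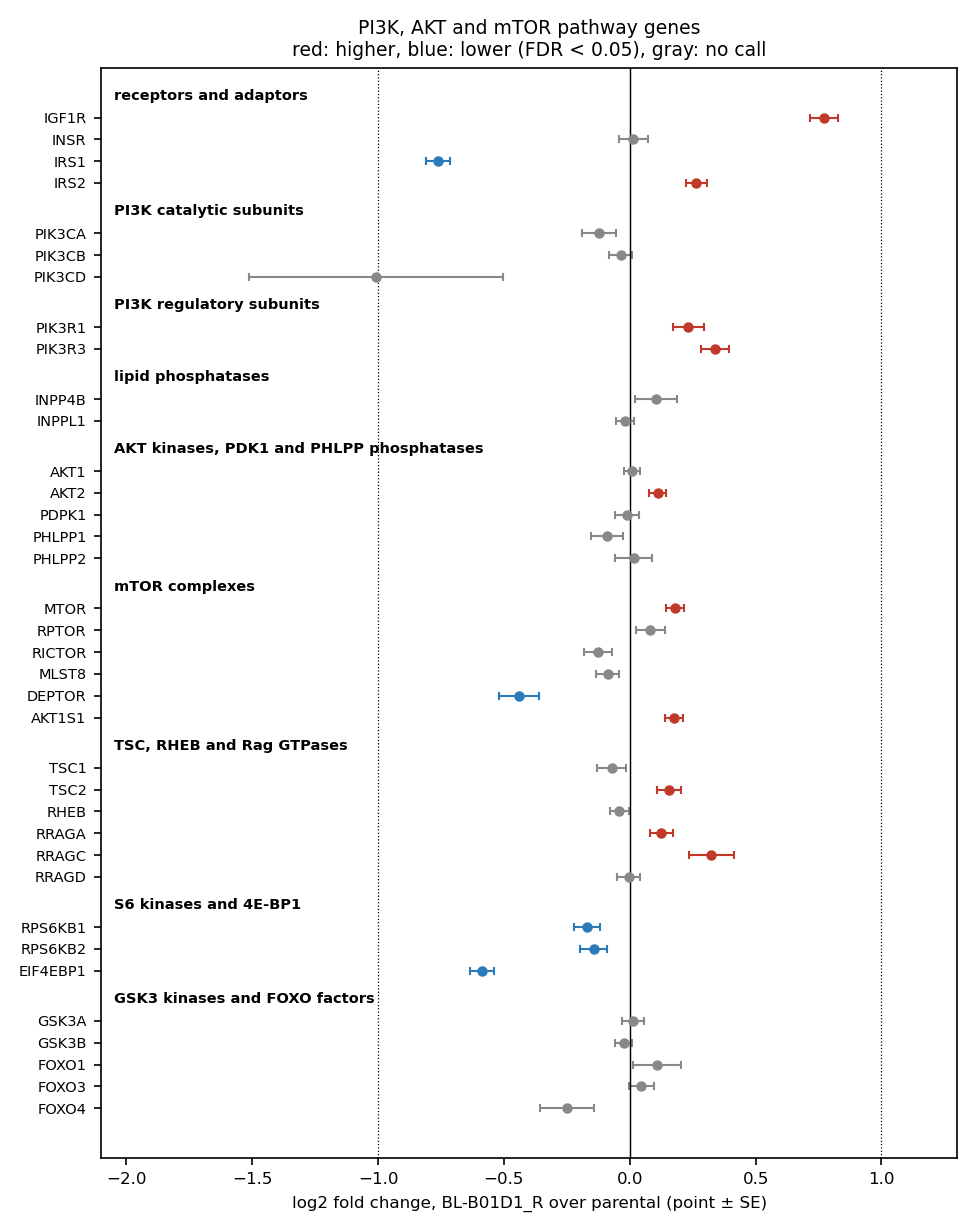
Log2 fold change of the 36 tested pathway genes in BL-B01D1_R over parental cells (x axis, point ± SE), grouped by role, with red for higher, blue for lower (FDR of less than 0.05) and gray for no call. IGF1R (0.77) and IRS1 (−0.76) lie farthest from 0 among the called genes, and no called gene reaches the dotted lines at 1 and −1.

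Among the called genes, the largest changes were those of IGF1R and IRS1, a receptor and an adaptor at the top of the pathway. IGF1R, which encodes the IGF-1 receptor, had 37.24, 39.12 and 41.42 CPM in the parental libraries and 67.08, 64.65 and 68.9 CPM in the resistant libraries. The groups did not overlap, and the lowest resistant library stood well above the highest parental one. The log2 fold change was 0.77 ± 0.057 (SE) at an FDR of 8.09e-15 in edgeR's test, which is 1.71-fold. The gene lies on chromosome 15 of hg38, from 98648539 to 98964530. Of 8 other tested genes centered within 1 Mb of it, 0 were higher and 3 lower at an FDR of less than 0.05.

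IRS1 encodes an adaptor that links both the IGF-1 receptor and the insulin receptor to PI3K. It had 94.21, 98.55 and 96.53 CPM in parental libraries and 58.09, 56.02 and 56.45 CPM in resistant libraries. Within each group the libraries were close together, and every resistant library was lower. The log2 fold change was −0.76 ± 0.046 (SE) at an FDR of 2.18e-17 in edgeR's test. IRS1 spans 226731317 to 226799759 on chromosome 2, and the 6 tested genes around it had a median log2 fold change of −0.21.

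The paralog IRS2 rose, with 161, 138.2 and 137.5 CPM in parental libraries and 181.5, 176.4 and 167.4 CPM in resistant libraries. Parental library 1 stood above the others and came closest to the resistant range, but the groups did not overlap. The log2 fold change of IRS2 was 0.26 ± 0.043 (SE) at an FDR of 3.15e-06 in edgeR's test, and fits that left out 1 library gave 0.23 to 0.35. The 5 tested neighbors of IRS2 had a median log2 fold change of −0.23, opposite in sign to IRS2 itself.

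Levels of different genes were compared as FPKM, which divides by the gene length listed in the table. The FPKM of IRS2 was 1.85 ± 0.21 (SD, n = 3) times that of IRS1 in parental libraries and 3.77 ± 0.12 times in resistant libraries. The sum of both genes was nearly equal, at 27.6 ± 1.46 FPKM in parental and 27.2 ± 0.95 FPKM in resistant libraries, and these ranges overlapped. Every resistant library was below every parental one for IRS1 and above for IRS2. The ratio therefore could not overlap between the groups, and its separation adds nothing to the calls of the single genes.

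INSR, the insulin receptor gene, had no call, with 53.06 to 60.44 CPM in parental and 54.41 to 61.39 CPM in resistant libraries. Its log2 fold change of 0.01 had a 95% interval from −0.10 to 0.13. IGF1R was expressed at 0.513 ± 0.040 (SD, n = 3) of the FPKM of INSR in parental libraries and at 0.865 ± 0.069 in resistant libraries. Per length, INSR thus stayed above IGF1R in each library. In CPM the order in resistant libraries was the reverse, with 64.65 to 68.9 CPM for IGF1R. The order there depends on the listed gene lengths, 13941 bases for IGF1R and 10451 for INSR. Their summed level was 8.32 ± 0.44 FPKM in parental and 10.4 ± 0.29 FPKM in resistant libraries, without overlap.

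**Figure D2:**
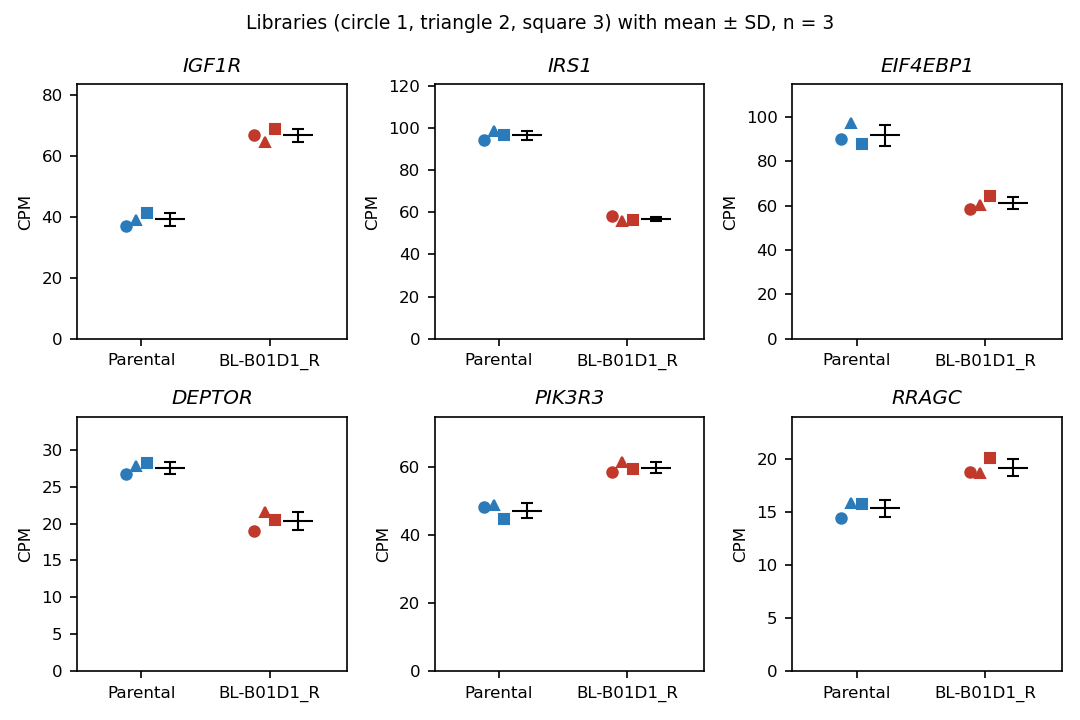
CPM (y axis, from 0) in each library of the 6 pathway genes called at an FDR under 0.05 whose log2 fold change exceeds 0.3 in size, with the mean ± SD of 3 libraries beside the points. In each panel the parental and resistant libraries are apart, with IGF1R, PIK3R3 and RRAGC higher and IRS1, EIF4EBP1 and DEPTOR lower in resistant cells.

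The catalytic subunits of class I PI3K had no call in either direction. PIK3CB, which encodes p110 beta, had 74.66, 74.5 and 75.93 CPM in parental libraries and 70.82, 73.49 and 75.06 CPM in resistant libraries, with overlapping ranges and a log2 fold change of −0.04 (95% interval −0.13 to 0.054). PIK3CA, which encodes p110 alpha, had 36.89, 36.03 and 34 CPM in parental and 34.14, 32.02 and 32.23 CPM in resistant libraries, and resistant library 1 fell inside the parental range. Its log2 fold change was −0.12 ± 0.067 (SE) at an FDR of 0.162 in edgeR's test. PIK3CB was the more abundant of the pair in every library, at 2.55 ± 0.13 (SD, n = 3) times the FPKM of PIK3CA in parental libraries and 2.70 ± 0.17 times in resistant ones. Together they had 13.3 ± 0.075 FPKM in parental and 12.8 ± 0.17 FPKM in resistant libraries, without overlap.

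PIK3CD, the p110 delta gene known mainly from leukocytes, rested on 14, 11 and 10 counts in parental and 6, 9 and 2 counts in resistant libraries. All resistant libraries were below all parental ones in CPM, but the log2 fold change of −1.01 had an SE of 0.51 and an FDR of 0.121, and ranged from −1.55 to −0.59 with 1 library left out. At this depth no difference could be called. On the other strand PIK3CD is overlapped by CLSTN1, a much more abundant gene with a mean of 5684 counts in parental libraries, and since it is not stated whether counting used strand, reads of the genes cannot be told apart. Of the 38 genes 31 overlap another gene of the table on either strand, and some overlaps are named where they touch a call.

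Regulatory subunits hold the catalytic subunits at phosphorylated receptors and adaptors. PIK3R3, which encodes p55 gamma, had 48.32, 48.83 and 44.74 CPM in parental libraries and 58.57, 61.66 and 59.65 CPM in resistant libraries. Every resistant library was higher, with a log2 fold change of 0.34 ± 0.055 (SE) at an FDR of 3.43e-06 in edgeR's test. PIK3R1, which encodes p85 alpha, had 47.45, 51.03 and 43.87 CPM in parental and 56.1, 59.89 and 51.77 CPM in resistant libraries. Parental library 2 and resistant library 3 were less than 1 CPM apart, so its groups were only just separate.

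The log2 fold change of PIK3R1 was 0.23 ± 0.061 (SE) at an FDR of 0.0023 in edgeR's test. With limma on log2(FPKM + 1) it was 0.20 and the FDR was 0.0795, so the call was lost. Relative to PIK3CA plus PIK3CB, the summed FPKM of PIK3R1 and PIK3R3 was 0.81 ± 0.045 (SD, n = 3) in parental libraries and 1.04 ± 0.049 in resistant libraries, without overlap. An exact permutation test of a ratio of this kind cannot give a two-sided p below 0.1 with 3 libraries against 3.

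PIK3R2, which encodes p85 beta, could not be read from the table. It had 1, 2 and 2 counts in parental and 0, 2 and 0 counts in resistant libraries. It lies on chromosome 19, from 18153118 to 18170540, and is overlapped on the same strand by a second gene model, AC007192.1, which is described in the table as a readthrough between PIK3R2 and IFI30, and has 0 counts in all 6 libraries. How counting treated reads that match both gene models is not given in the sources used here, and its part in the low count was not tested. PIK3R3 is likewise overlapped by a gene model with 0 counts, AL358075.4, and its level carries the same uncertainty.

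**Figure D3:**
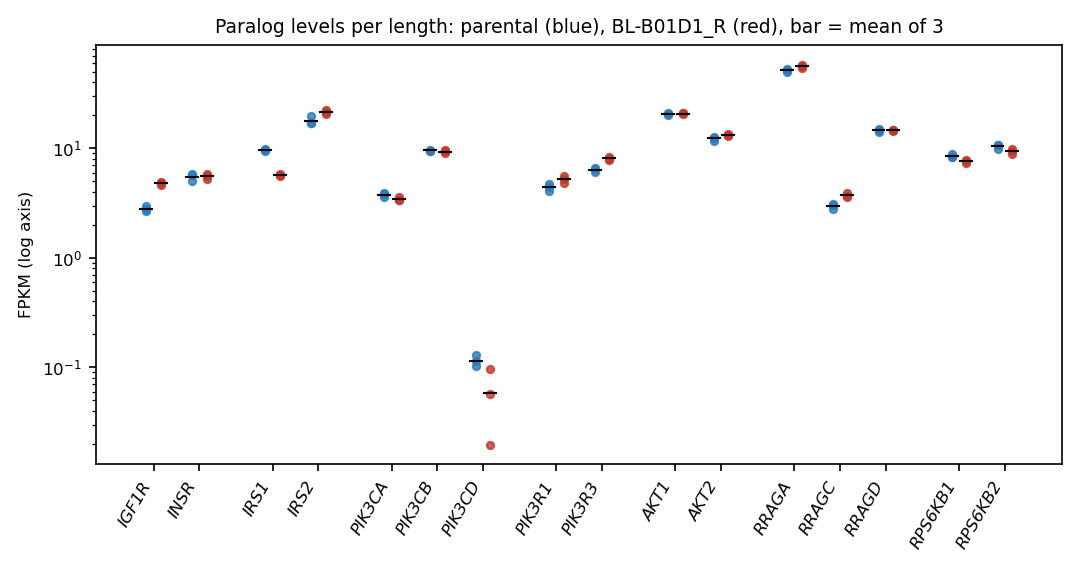
FPKM of paralogous pathway genes (y axis, log scale) in the 3 parental (blue) and 3 BL-B01D1_R (red) libraries, with a bar at the mean. IRS1 and IRS2 move apart, IGF1R approaches INSR, AKT1 stays above AKT2, and PIK3CD lies under 0.2 FPKM.

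Of the 3 lipid phosphatase genes among the 38, INPPL1 and INPP4B were tested and neither had a call. INPPL1, which encodes SHIP2, was the more abundant, at 150 ± 2.94 CPM (SD, n = 3) in parental and 148 ± 1.65 CPM in resistant libraries. INPP4B, which removes a phosphate from PI(3,4)P2 and is known as a tumor suppressor in prostate, had 18.39 to 19.71 CPM in parental and 20.15 to 20.99 CPM in resistant libraries. Its groups did not overlap, but the log2 fold change of 0.10 had an FDR of 0.357. INPP5D, which encodes SHIP1 of blood cells, had at most 2 counts in any library and was not tested.

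AKT, the kinase at the center of the pathway, was considered by isoform. AKT1 had 234.8, 230.3 and 226 CPM in parental libraries and 228.4, 234.1 and 233.7 CPM in resistant libraries. The ranges overlapped, and the log2 fold change of 0.01 had a 95% interval from −0.052 to 0.071. AKT2 had 176.8, 192.7 and 187.3 CPM in parental and 196.8, 199.2 and 204.9 CPM in resistant libraries, without overlap.

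The log2 fold change of AKT2 was 0.11 ± 0.035 (SE) at an FDR of 0.011 in edgeR's test, an increase of 7.95%. It did not pass the test without parental library 1, the lowest of them (FDR 0.104), or resistant library 3 (FDR 0.0643), and in limma on log2(FPKM + 1) it missed the threshold too (FDR 0.1). The summed FPKM of AKT1 and AKT2 was 33 ± 0.41 (SD, n = 3) in parental and 34.1 ± 0.52 in resistant libraries. These groups were only just separate, with 33.45 FPKM in the highest parental and 33.55 FPKM in the lowest resistant library. AKT1 was the more abundant per length in every library, at 1.68 ± 0.099 times AKT2 in parental and 1.56 ± 0.023 times in resistant libraries, without overlap.

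PDPK1, which encodes the AKT-activating kinase PDK1, had a log2 fold change of −0.01 (SE 0.048). Its near-identical copy PDPK2P held between 77 and 117 counts per library, and reads could have been divided between them. PHLPP1 and PHLPP2, phosphatases that remove an activating phosphate from AKT, had log2 fold changes of −0.09 and 0.02 with FDR of 0.297 and 0.891.

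Among the mTOR complex genes, MTOR and AKT1S1 rose and DEPTOR fell. DEPTOR encodes an inhibitory subunit that binds mTOR in both complexes. It had 26.68, 27.87 and 28.24 CPM in parental libraries and 19, 21.55 and 20.52 CPM in resistant libraries, with every resistant library lower. Its log2 fold change was −0.44 ± 0.078 (SE) at an FDR of 1.46e-05 in edgeR's test. The 11 tested genes within 1 Mb of DEPTOR had a median log2 fold change of −0.28, with 1 higher and 3 lower.

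MTOR, the kinase itself, had 127.3, 128 and 128.4 CPM in parental libraries and 144.2, 144.1 and 146.8 CPM in resistant libraries. The spread within each group was small against the gap between them, and the log2 fold change was 0.18 ± 0.036 (SE) at an FDR of 8.50e-05 in edgeR's test. Of 31 tested neighbors of MTOR 4 were higher and 7 lower, with a median of −0.11. AKT1S1 encodes PRAS40, an inhibitory partner of mTOR complex 1 that AKT phosphorylates. It had 134.1, 129.2 and 134.1 CPM in parental and 149.2, 147.1 and 152.5 CPM in resistant libraries, again without overlap, with a log2 fold change of 0.18 ± 0.036 (SE) at an FDR of 1.33e-04.

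AKT1S1 lies in a gene-dense stretch of chromosome 19 in which 31 of 81 tested neighbors were higher and 12 lower, with a median log2 fold change of 0.17, close to its own value. AKT1S1 is also overlapped by TBC1D17 on the other strand. The remaining subunits had no call. RPTOR, which defines mTOR complex 1, had a log2 fold change of 0.08, RICTOR, which defines complex 2, one of −0.13, and MLST8, shared by both, one of −0.09.

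For RICTOR the result depended on single choices. Its FDR was 0.0765, but 0.00963 without parental library 3 and 0.0434 with library size alone. Among the fits run, MLST8 passed the test in the one without parental library 1 (FDR 0.0106). The FPKM of RPTOR was 1.14 ± 0.063 (SD, n = 3) times that of RICTOR in parental and 1.32 ± 0.022 times in resistant libraries, with no overlap between the groups. For each gene alone the ranges overlapped, and the ratio was not tested. With 3 libraries against 3, an exact permutation test of it cannot give a two-sided p below 0.1. Among all single genes tested, 22.1% were without overlap as higher and 22.8% as lower. RICTOR is overlapped by OSMR, which had a mean of 190.3 counts in parental and 123.3 counts in resistant libraries.

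Upstream of mTOR complex 1, the Rag GTPases dock it on the lysosome when amino acids are present, as heterodimers of RRAGA or RRAGB with RRAGC or RRAGD. RRAGC had 14.44, 15.9 and 15.78 CPM in parental libraries and 18.82, 18.7 and 20.15 CPM in resistant libraries. Every resistant library was higher, and the log2 fold change was 0.32 ± 0.09 (SE) at an FDR of 0.00384 in edgeR's test. The gene is overlapped on the same strand by AL139260.2, which has 0 counts. It spans 38838198 to 38859823 on chromosome 1, and of its 19 tested neighbors 2 were higher and 8 lower.

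RRAGD, the alternative partner, had no call, with 71.9 to 75.59 CPM in parental and 72.88 to 74.62 CPM in resistant libraries and a log2 fold change of −0.0039 (SE 0.046). RRAGD remained the more abundant of the pair per length. RRAGC reached 0.204 ± 0.014 (SD, n = 3) of its FPKM in parental and 0.255 ± 0.0094 in resistant libraries. RRAGA, with the highest FPKM of these Rag genes, had a log2 fold change of 0.13 ± 0.045 (SE) at an FDR of 0.0257. That call was lost with DESeq2 (FDR 0.0698), with library size alone (FDR 0.0538), without parental library 1 (FDR 0.0899) and without resistant library 1 (FDR 0.149) or 3 (FDR 0.0614).

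The TSC complex switches RHEB, the direct activator of mTOR complex 1, to its inactive form. TSC2 had 70.66, 71.52 and 76.65 CPM in parental and 83.79, 78.38 and 81.1 CPM in resistant libraries, with a log2 fold change of 0.16 ± 0.047 (SE) at an FDR of 0.00823 in edgeR's test. The call was lost without resistant library 1 (FDR 0.0609) and with limma on log2(FPKM + 1) (FDR 0.159), and TSC2 is overlapped by PKD1 and NTHL1, both on the other strand. TSC1 and RHEB had no call, with log2 fold changes of −0.07 and −0.04. For TSC1 all resistant libraries were nonetheless below the parental ones.

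The effectors of mTOR complex 1 on this list were all lower in resistant cells. EIF4EBP1 encodes 4E-BP1, which blocks the cap-binding factor eIF4E until mTOR complex 1 phosphorylates it. It had 89.92, 97.12 and 87.96 CPM in parental libraries and 58.7, 60.44 and 64.15 CPM in resistant libraries. The groups were far apart, and the log2 fold change was −0.59 ± 0.049 (SE) at an FDR of 4.05e-13 in edgeR's test. Per length EIF4EBP1 was the most abundant of the 38 genes in parental cells, with 85.4 ± 4.5 FPKM (SD, n = 3), and had 56.9 ± 2.6 FPKM in resistant cells. Among 19 tested neighbors of EIF4EBP1 0 were higher and 5 lower.

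The S6 kinase genes, whose products phosphorylate ribosomal protein S6, fell by less. RPS6KB1 had 64.62, 67.71 and 64.55 CPM in parental and 56.52, 60.23 and 58.48 CPM in resistant libraries, with a log2 fold change of −0.17 ± 0.051 (SE) at an FDR of 0.00791 in edgeR's test. RPS6KB2 had 57.95, 62.35 and 61.95 CPM in parental and 57.37, 52.01 and 55.28 CPM in resistant libraries, with a log2 fold change of −0.14 ± 0.054 (SE) at an FDR of 0.035. Neither gene's groups overlapped, although for RPS6KB2 parental library 1 and resistant library 1 were nearly equal.

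These S6 kinase calls lay close to the threshold, and RPS6KB1 is overlapped on the same strand by AC005702.1, a protein-coding gene model with 0 counts. RPS6KB1 just missed the threshold without parental library 2 (FDR 0.0503) or resistant library 1 (FDR 0.0583). RPS6KB2 missed it without parental library 2 (FDR 0.129) or 3 (FDR 0.1) and without resistant library 2 (FDR 0.194) or 3 (FDR 0.0656), with DESeq2 (FDR 0.0901), without a filter on low counts (FDR 0.0602) and with limma on log2(FPKM + 1) (FDR 0.0801).

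The GSK3 and FOXO genes, whose products AKT phosphorylates directly, had no call. GSK3A and GSK3B, kinases that AKT inhibits, had log2 fold changes of 0.01 and −0.02, with 95% intervals of −0.072 to 0.099 and −0.092 to 0.044. GSK3A is overlapped on the same strand by AC006486.1, a protein-coding gene model with a mean of 0 counts in parental and 0.333 counts in resistant libraries. FOXO1 and FOXO3, transcription factors that AKT keeps out of the nucleus, had log2 fold changes of 0.11 (FDR 0.418) and 0.05 (FDR 0.503). FOXO3B, a copy of FOXO3, held 32 to 66 counts per library.

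FOXO4, a further FOXO factor, had 18.1, 13.87 and 16.14 CPM in parental and 12.06, 15.16 and 13.37 CPM in resistant libraries. The groups overlapped. Its log2 fold change of −0.25 had an FDR of 0.0642. The FDR was 0.0156 without parental library 2, 0.0288 without resistant library 2 and 0.0483 with library size alone.

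Over the whole group, 21 tested genes had no call. Apart from PIK3CD their log2 fold changes lay between −0.25 and 0.11, with SE of 0.031 to 0.11. Of the 15 calls, 6 were past 0.3 on the log2 scale (16.7% of the tested pathway genes, against 19.1% of all genes tested), and the other 9 were between 0.11 and 0.26 in size, 7 of them higher and 2 lower. In all 6 fits that left out a library 10 of the 15 calls were kept, namely IGF1R, IRS1, IRS2, PIK3R1, PIK3R3, MTOR, DEPTOR, AKT1S1, RRAGC and EIF4EBP1.

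A further 150 genes around the pathway, grouped by function, were compared in the same way. Of these, 130 were tested, 36 were higher (27.7%) and 34 lower (26.2%), and their median log2 fold change was 0.0061. Among all genes tested, 17.1% were higher and 18.4% lower, and the counts by function given next are descriptions beside these same shares. This wider set held 5 genes past both thresholds, 3 higher and 2 lower, where 2.53% and 2.84% of all genes passed. They were IGFBP3, DDIT4L and PHLDA3, which rose, and PRR5L and PDK4, which fell.

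Of 16 genes for IGF ligands, binding proteins and adaptors, 10 were tested, with 2 higher and 2 lower. IGFBP3, which binds IGFs outside the cell, had 7.193, 5.895 and 10.09 CPM in parental libraries and 47.66, 51.33 and 47.39 CPM in resistant libraries. The lowest resistant library was several times the highest parental one, with a log2 fold change of 2.68 ± 0.099 (SE) at an FDR of 8.02e-25 in edgeR's test. The ligand genes IGF1 and IGF2 had too few counts to be tested.

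Of 14 genes for energy and stress input, 13 were tested, with 4 higher and 3 lower. DDIT4L encodes REDD2, an inhibitor of mTOR complex 1 signaling. It had 10.56, 9.409 and 13.69 CPM in parental libraries and 46.09, 49.76 and 50.35 CPM in resistant libraries, for a log2 fold change of 2.13 ± 0.088 (SE) at an FDR of 3.40e-23 in edgeR's test. CAB39L, a scaffold of the kinase LKB1, rose by 0.75 in log2 fold change.

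The 28 genes of amino acid sensing gave 8 higher and 5 lower among 27 tested. BMT2, which encodes the S-adenosylmethionine sensor SAMTOR, had a log2 fold change of 0.71 ± 0.11 (SE) at an FDR of 1.42e-06. CASTOR2, related to the arginine sensor CASTOR1, had one of 0.51, but the similar gene CASTOR3, with 301 to 471 counts per library, could share its reads. Of 7 genes for assembly and other subunits of the mTOR complexes 1 was higher and 2 were lower. PRR5L, which binds mTOR complex 2, had a log2 fold change of −1.84 ± 0.48 (SE) at an FDR of 0.00201 in edgeR's test. It had 1.102, 0.9528 and 0.9365 CPM in parental and 0.2413, 0.3399 and 0.2465 CPM in resistant libraries. These values rest on 19, 16 and 13 counts in parental and 4, 5 and 4 counts in resistant libraries. At this depth the size of the change is uncertain.

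Of 12 AKT cofactors and inhibitors, 9 were tested, with 4 higher and 2 lower. PHLDA3, a p53 target that keeps AKT from the membrane, had 10.15, 13.34 and 11.89 CPM in parental and 24.43, 25.36 and 26.56 CPM in resistant libraries. Its log2 fold change was 1.11 ± 0.094 (SE) at an FDR of 5.63e-13 in edgeR's test. Of 25 further PI3K subunits and lipid enzymes, 5 were higher and 5 lower among 20 tested. The phosphoinositide phosphatase genes INPP4A (−0.30) and INPP5J (−0.32) were lower and SYNJ1 (0.26) and INPP5K (0.18) higher on the log2 scale. PIK3AP1, an adaptor for PI3K, fell by 0.82 and the class II enzyme gene PIK3C2B by 0.50 on the log2 scale.

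Among 25 further effectors of AKT and mTOR complex 1, all tested, 4 were higher and 9 lower. GRB10, an adaptor that restrains insulin and IGF-1 receptor signaling and is stabilized by mTOR complex 1, had 22.28, 18.4 and 23.49 CPM in parental and 10.74, 11.01 and 10.48 CPM in resistant libraries. Its log2 fold change was −0.99 ± 0.1 (SE) at an FDR of 9.04e-11 in edgeR's test. SREBF2, which encodes a regulator of cholesterol synthesis, was −0.66, whereas SGK1 and SGK2, kinases related to AKT, were 0.51 and 0.83. Among the AKT substrate genes, TBC1D4 (−0.43), TBC1D1 (−0.37) and CDKN1B (−0.31) were lower. AKT1S1 (0.18) and TSC2 (0.16), whose products AKT also targets, were higher, and BAD (0.12) and the GSK3 and FOXO genes had no call.

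Of 19 FOXO target genes, 15 were tested, with 6 higher and 4 lower. BCL6 (log2 fold change 0.76) and GADD45A (0.70) rose and PDK4 (−1.21) fell, so the targets moved both ways. All 4 ErbB receptor genes had a call. EGFR (0.38) and ERBB4 (0.59) were higher and ERBB2 (−0.32) and ERBB3 (−0.11) lower, and ERBB3 kept its call in 3 of the 6 fits that left out a library.

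**Figure D4:**
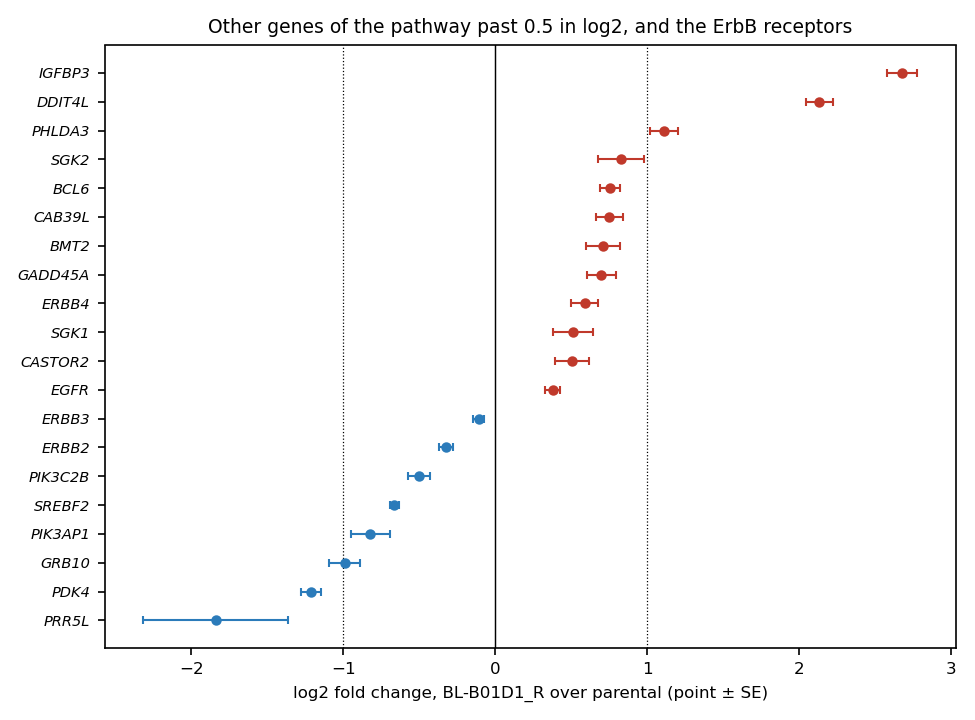
Log2 fold change in BL-B01D1_R over parental cells (x axis, point ± SE) of the further pathway genes called at an FDR under 0.05 whose log2 fold change exceeds 0.5 in size, and of the ErbB receptor genes, with red for higher and blue for lower. IGFBP3 (2.68) and DDIT4L (2.13) are farthest to the right and PRR5L (−1.84) farthest to the left.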

How the data were processed

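RNA-Seq of 3 parental and 3 BL-B01D1_R libraries was analysed, grouped by sample titles. The labels name mouse, but cell line and gene identifiers are human. Per the labels and the paper's methods, the authors processed mRNA reads with fastp, HISAT2 (2.0.5, hg38) and featureCounts (1.5.0-p3), and deposited raw counts per gene. Annotation release and strand setting are not given in the sources used here. The number of unused columns of per-sample values was 0. Gene lengths, another quantity the authors deposited, gave FPKM.

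Counts were filtered with filterByExpr, scaled with TMM and tested in edgeR 4.0.16 (R 4.3.3) by the quasi-likelihood method, and the p-values of the 17142 genes were adjusted after Benjamini and Hochberg (FDR). The paper's methods name limma, which was run as an alternative. Replicates varied with a biological coefficient of variation of 3.51%. The SE is the log2 fold change divided by the square root of F, and 95% intervals use a normal approximation. Floors of 3 counts cover counting error only. Alternatives were DESeq2 (1.42.0), limma-voom (limma 3.58.1), library size alone, RLE factors, no filter, a minimum of 10 counts per library, the replicate block, limma on log2(FPKM + 1), and each library left out in turn.

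All 38 genes are named. From the further lists, genes called at an FDR under 0.05 and changed by over 0.5 on the log2 scale, and the ErbB receptors, are named. LUM and other markers, CLSTN1, INPP4A, INPP5J, SYNJ1, INPP5K, TBC1D1, TBC1D4, CDKN1B, BAD, IGF1, IGF2 and overlapping or copied genes were named after their values were seen. Where a symbol had 2 identifiers (SOD2, IGF2), the one with more counts was used. Genes and lists were chosen with earlier results of these data known. Scripts were tested on simulated counts. Sequences were not used here.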

Additional observations from a re-analysis of the deposited data

How the results depend on the processing

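The numbers of pathway genes higher and lower, 10 and 5, ranged from 7 to 10 and from 4 to 7 over the 8 alternatives, and from 8 to 10 and from 4 to 6 with 1 library left out. The number past both thresholds was 0 under each of them. The median log2 fold change of the pathway genes, 0.0029, was −0.0132 with library size alone, which leaves out the TMM factors. These factors were 1.001 to 1.009 in parental and 0.9931 to 0.9956 in resistant libraries. With 1 library left out the median ranged from −0.00801 to 0.0167, and the cause of that spread was not tested. Of the single-gene values, 10 changed their side of the threshold under the alternatives and 16 with 1 library left out, whereas 277 and 200 did not, and no called gene changed direction. IGF1R, IRS1, IRS2, PIK3R3, MTOR, DEPTOR, AKT1S1, RRAGC and EIF4EBP1 (9 of the 15) were called in every fit run. The further genes, 36 higher and 34 lower, ranged from 29 to 39 and from 25 to 36. PIK3CD had no value with at least 10 counts in every library.

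Replicate numbers are shared by both groups, but same-numbered libraries did not deviate together (correlations of −0.0247 to −0.00703), and 0 of 6 libraries correlated best with its own number. With the replicate number as a block, 10 pathway genes were higher and 5 lower, and no call of a pathway gene changed. PIK3CD, PIK3R2 and INPP5D had at most 14 counts in any library, so depth limits what can be said of them.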
